A study of Mus musculus with 18 samples.

Results

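The 10 genes described here encode the lysosomal proteases cathepsin A, B, C, D, E, H, L, S and Z and legumain (Ctsa, Ctsb, Ctsc, Ctsd, Ctse, Ctsh, Ctsl, Ctss, Ctsz and Lgmn). They were chosen by name and matched to their Ensembl rows, 10 of the 49585 genes in the count table, and were followed through all 18 libraries. The study sorted viable CD45+ leukocytes carrying red (photoconverted) Kaede protein from inflamed ankle joints or ear pinnae (skin) and from the lymph nodes (LNs) that drain them, and sequenced their RNA in bulk. Kaede is a fluorescent protein that light turns from green to red for good, so a red cell in the draining LN had been at the inflamed site when it was lit.

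The libraries fell into 6 groups of 3: joint nonmigrated, joint migrated, skin nonmigrated, skin migrated, and the joint-draining and skin-draining LNs at steady state. In the 4 inflamed groups, Kaede mice had received Th1 cells made in vitro from OT-II CD45.1 donors, were immunised with ovalbumin in complete Freund's adjuvant, and were challenged with 100 µg heat-aggregated ovalbumin in the footpad or the ear. The tissue was lit on day 3 after challenge and cells were collected 24 h later. Mice were 6 to 10 weeks old, and 8 to 18 mice were pooled for each inflamed replicate. The steady-state samples are labelled as leukocytes that had gone from the uninflamed joint or ear to its LN, and the protocol given for every sample sorts red cells. Titles of the joint-draining steady-state samples add PBS and KG and those of the skin-draining ones add Naive, so the 2 sets may not have had the same treatment. These titles also leave unsettled whether the steady-state cells were all red. If they were not, those groups held cells of the whole node, and each value against steady state compares migrated cells with resident node cells. No cell type was sorted within CD45+ cells, and fewer cells of a type cannot be told apart in bulk RNA from less RNA per cell.

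Cathepsins are proteases of endosomes and lysosomes. Most are papain-like cysteine proteases (B, C, H, L, S and Z), whereas cathepsins D and E are aspartic proteases, cathepsin A is a serine carboxypeptidase, and legumain is a cysteine protease that cuts after asparagine. They degrade ingested protein in macrophages, mature one another from inactive precursors, and in antigen-presenting cells help to cut the invariant chain (Cd74) and to prepare peptides for MHC class II.

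A lysosomal gene programme is known to be read through E-box motifs by TFEB, and macrophage genes through sites for PU.1. Promoters of 4 members that fell in migrated cells are shown, picked because they hold such a motif. Those of Ctss, Ctsz and Lgmn and the first start of Ctsa are not shown. A part of either factor in the member differences was not tested. The RefSeq promoter table (GRCm38.p6, 300 bases from 250 before to 50 after a start site) held 7 of the 10 members, and Ctsb, Ctse and Ctsh were without an entry. The 250 bases before a start site listed for 4 members are printed 5′ to 3′ on the gene's strand. Capitals mark the E-box CACGTG (with flanking T or A where the longer motif TCACGTG matched on either strand). In Ctsc they mark the PU.1 motif GAGGAAGT on the opposite strand.
Ctsd, chr7:142387828-142388077, minus strand: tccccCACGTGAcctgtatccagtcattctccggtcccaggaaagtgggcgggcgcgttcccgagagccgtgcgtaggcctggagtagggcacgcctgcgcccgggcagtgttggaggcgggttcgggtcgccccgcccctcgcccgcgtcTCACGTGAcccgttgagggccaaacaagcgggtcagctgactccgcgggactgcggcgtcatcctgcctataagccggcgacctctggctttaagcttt
Ctsa, second start, chr2:164833523-164833772, plus strand: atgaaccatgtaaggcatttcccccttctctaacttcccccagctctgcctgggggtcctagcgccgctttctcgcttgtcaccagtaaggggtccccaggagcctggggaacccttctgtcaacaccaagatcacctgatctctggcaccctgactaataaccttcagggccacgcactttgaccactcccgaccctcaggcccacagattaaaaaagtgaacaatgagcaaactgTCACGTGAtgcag
Ctsl, chr13:64370521-64370770, minus strand: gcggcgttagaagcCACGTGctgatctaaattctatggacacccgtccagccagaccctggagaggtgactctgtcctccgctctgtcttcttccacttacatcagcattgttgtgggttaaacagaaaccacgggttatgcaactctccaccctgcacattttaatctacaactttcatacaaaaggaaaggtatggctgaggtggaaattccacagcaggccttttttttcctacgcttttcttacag
Ctsc, chr7:88277835-88278084, plus strand: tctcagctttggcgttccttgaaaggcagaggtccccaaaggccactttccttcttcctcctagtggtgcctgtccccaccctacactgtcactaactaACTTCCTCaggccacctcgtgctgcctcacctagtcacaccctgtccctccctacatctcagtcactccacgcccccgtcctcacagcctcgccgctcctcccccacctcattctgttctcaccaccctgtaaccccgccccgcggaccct

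Searched on both strands over the 300 bases, CACGTG was found in 4 of the 9 promoters listed for these 7 members (those of Ctsa, Ctsd, Ctsl and Lgmn) and in 7.15% of all 32851 promoters in the table. TCACGTG, which contains it, was found in 3 of the 9 (Ctsa, Ctsd and Lgmn) and in 3.77% of promoters. GAGGAAGT was found in 2 of the 9 (Ctsc and Ctss) and in 3.2% of promoters. In Ctss, the match crossed the start site. The entries with an E-box in Ctsl, Lgmn and Ctsa (second start) lie within the gene spans given below. Most of the Ctsd stretch does too, so these stretches are not simply sequence upstream of the gene. These are matches of letters, and binding was not measured.

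All 10 members are protein-coding and lie on separate parts of the mm10 genome. Ctsa (ENSMUSG00000017760) spans chr2:164832873-164841032, Ctsb (ENSMUSG00000021939) chr14:63122462-63145923, Ctsc (ENSMUSG00000030560) chr7:88278085-88310888 and Ctsd (ENSMUSG00000007891) chr7:142375911-142388038. Ctse (ENSMUSG00000004552) spans chr1:131638306-131675505, Ctsh (ENSMUSG00000032359) chr9:90054152-90076089 and Ctsl (ENSMUSG00000021477) chr13:64359337-64370890. Ctss (ENSMUSG00000038642) spans chr3:95526786-95556403, Ctsz (ENSMUSG00000016256) chr2:174427493-174439039 and Lgmn (ENSMUSG00000021190) chr12:102394084-102439813. Exons of Ctsa overlap those of Pltp and Neurl2, exons of Ctsb those of Fdft1 and exons of Ctsz those of Nelfcd, all on the opposite strand, and Ctsd overlaps Gm49369 on its own strand. Whether the libraries kept strand is not stated in the sources used here, so reads shared between these pairs are uncertain.

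Libraries held 19239531 to 43814403 assigned counts, and the lowest count of any member in any library was 123 (Ctsl in a skin migrated library). The 6 inflamed skin libraries were smaller (19239531 to 22528895 counts) than the other 12 (28577566 to 43814403), and held fewer reads outside genes (0.0925 to 0.135% against 0.227 to 0.562%). The labels name no batch, so a difference in processing cannot be told apart from the site, or, in skin, from inflammation. The CD45 gene Ptprc was present in every library (1134 to 2564 CPM, counts scaled to library size with TMM factors). Skin nonmigrated replicates 2 and 3 and joint migrated replicate 1 stood apart from their groups for several members, and values without them are given where they move a result.

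The first question was how members differed between cells that stayed at the inflamed site and cells that had reached the LN. In the joint, 8 of 10 members fell in migrated cells: Ctsl, Lgmn, Ctsb, Ctss, Ctsc, Ctsd, Ctsa and Ctsz. In skin 7 fell, the same ones without Ctsz, and no member rose at either site. Of all 16777 genes tested, 12.6% were called lower in the joint and 12.4% in skin, and 8.8% and 8.49% were called higher. A call needed a Benjamini-Hochberg adjusted p below 0.001 (edgeR, quasi-likelihood) and a change of more than 1, up or down, on the log2 scale. The members' median on that scale was -2.83 in the joint and -2.43 in skin, against 0.02 and 0.01 over all genes tested. The 8 joint calls were 7 or 8 with any 1 library left out, and 8 without migrated replicate 1. The 7 skin calls were 6 or 7, and 7 without nonmigrated replicate 2 or 3. DESeq2 called 8 members lower in the joint and 8 in skin. At an adjusted p under 0.05 with the same limit on size, edgeR also gave 8 at each site, with Ctsz among them in skin.

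**Figure D1:**
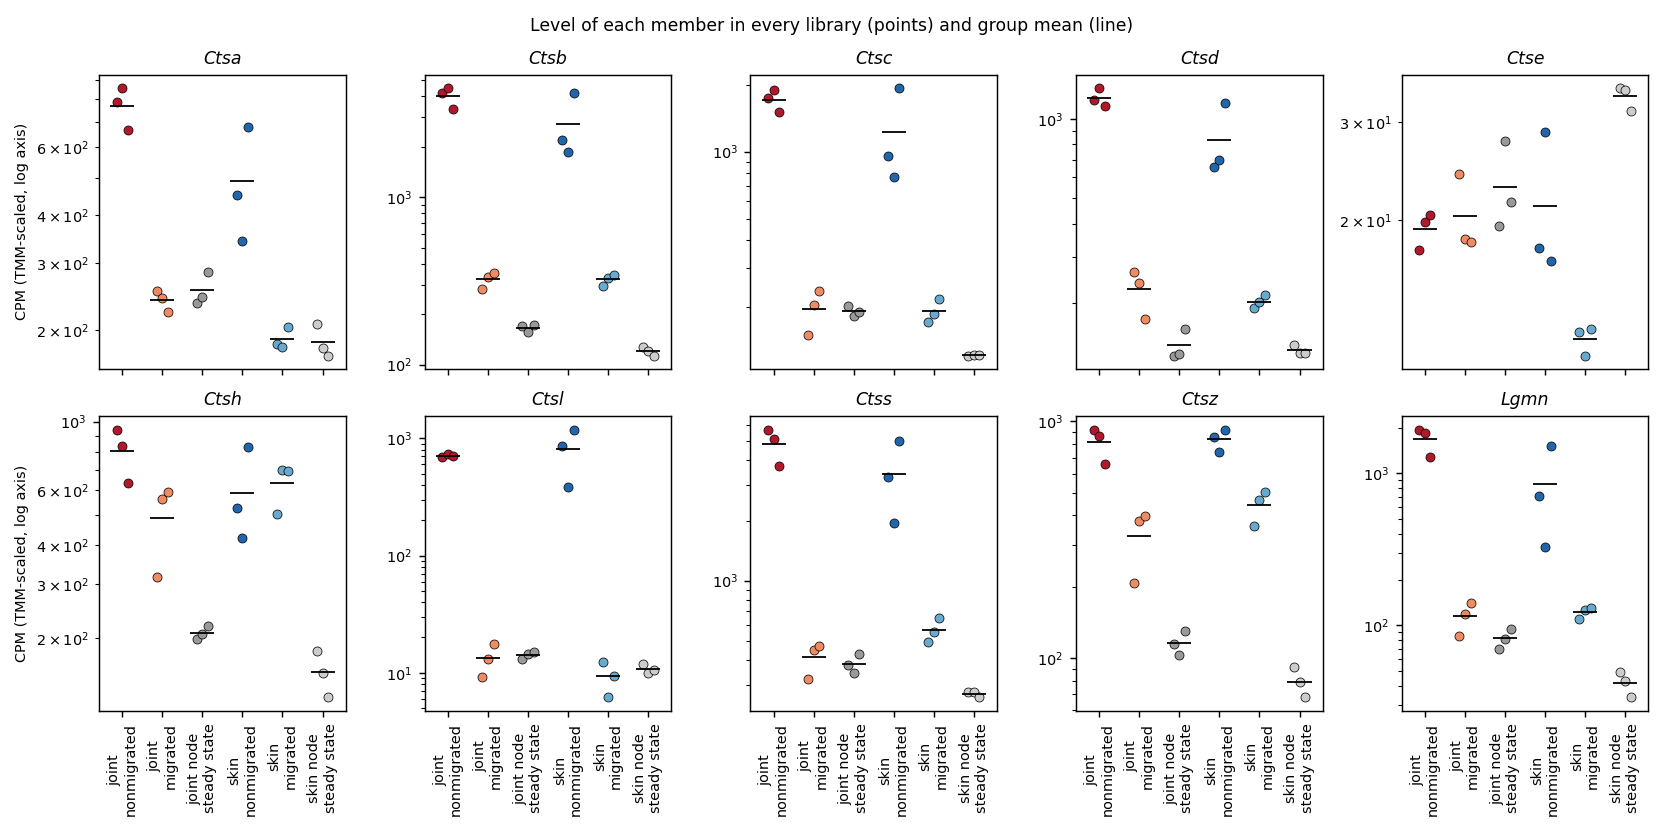
Level of each member in every library as TMM-scaled CPM on a log axis, with 3 libraries (points) and the mean (line) for each of the 6 groups; each panel has its own scale. For all members but Ctsh and Ctse, all 6 nonmigrated libraries sit above all 12 LN libraries, whereas Ctsh overlaps between compartments and Ctse is lowest in skin migrated cells.

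Ctsl showed the widest gap among the members. Cathepsin L is an endopeptidase of lysosomes that also cuts the invariant chain in the thymic epithelium. Its level was 693, 729 and 701 CPM in joint nonmigrated replicates 1 to 3 and 9.21, 13.0 and 17.6 CPM in joint migrated ones. In skin it was 857, 386 and 1186 CPM in nonmigrated and 12.4, 6.16 and 9.40 CPM in migrated libraries. The groups did not overlap at either site, and the lowest nonmigrated library was far above every migrated one. The log2 fold change was -5.80 (SE 0.44, adjusted p 1.4e-06), or 55.7-fold lower, in the joint and -6.55 (SE 0.46, adjusted p 7.5e-07), or 93.5-fold lower, in skin.

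Lgmn, the asparaginyl endopeptidase that also activates several cathepsins, was at 1943, 1838 and 1286 CPM in joint nonmigrated cells and at 84.4, 119 and 141 CPM in migrated cells. In skin it was at 711, 327 and 1511 CPM in nonmigrated and 111, 127 and 129 CPM in migrated libraries. All nonmigrated libraries were above all migrated ones, but skin nonmigrated replicates differed among themselves more than those of any other member. Lgmn fell by 3.94 on the log2 scale (SE 0.46, adjusted p 2.5e-05) in the joint. In skin it fell by 2.90 (SE 0.43, adjusted p 0.000167), and this call held in 8 of 13 fits (adjusted p up to 0.00272). It was lost when any single skin migrated replicate was left out (adjusted p up to 0.00129). It was also lost with a replicate block and when only the groups compared were fitted.

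Ctss, the main invariant chain protease of B cells and dendritic cells and abundant in macrophages, was at 5715, 5108 and 3768 CPM in joint nonmigrated cells and at 322, 447 and 469 CPM in migrated cells. In skin it was at 3293, 1952 and 5007 CPM in nonmigrated and 494, 553 and 648 CPM in migrated libraries. The 2 ranges were separate at both sites. Its log2 fold change was -3.62 (SE 0.32, adjusted p 3.5e-06) in the joint and -2.71 (SE 0.30, adjusted p 2.0e-05) in skin.

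Ctsb, a lysosomal endopeptidase and carboxydipeptidase, was at 4173, 4487 and 3347 CPM in joint nonmigrated and 284, 336 and 351 CPM in joint migrated cells. In skin the values were 2200, 1857 and 4180 CPM in nonmigrated and 296, 330 and 342 CPM in migrated cells. Migrated levels were much alike at the 2 sites, whereas nonmigrated levels spread over a wider range in skin. Ctsb fell by 3.69 on the log2 scale (SE 0.27, adjusted p 1.2e-06) in the joint and by 3.20 (SE 0.27, adjusted p 2.6e-06) in skin.

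Ctsc, the dipeptidyl peptidase that activates granule serine proteases of neutrophils, mast cells and cytotoxic lymphocytes, fell by 3.18 (SE 0.31) in the joint and 2.78 (SE 0.30) in skin. Its mean level was 1711 ± 196 CPM (SD, n = 3) in joint nonmigrated and 197 ± 44.1 CPM in joint migrated cells. Ctsd, the main lysosomal aspartic protease, fell by 2.48 (SE 0.21) and 2.15 (SE 0.21), from 1205 ± 97.2 to 226 ± 46.1 CPM (SD, n = 3) in the joint. Ctsa, the carboxypeptidase that also protects β-galactosidase and neuraminidase in the lysosome, fell by 1.74 (SE 0.20) and 1.48 (SE 0.20), from 770 ± 98.0 to 240 ± 15.0 CPM (SD, n = 3) in the joint. The adjusted p of these 3 members was 2.3e-05 or less in the joint and 7.4e-05 or less in skin, and their nonmigrated and migrated libraries did not overlap at either site. Ctsa lost its skin call when only the groups compared were fitted (adjusted p 0.00182).

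Ctsz, Ctsh and Ctse behaved otherwise. Ctsz, a carboxypeptidase also called cathepsin X, was at 917, 866 and 662 CPM in joint nonmigrated and 208, 380 and 398 CPM in joint migrated cells. In skin it was at 862, 741 and 923 CPM in nonmigrated and 363, 464 and 501 CPM in migrated cells. Nonmigrated levels were higher at both sites, by a smaller margin than for the genes above. Its log2 fold change was -1.37 (SE 0.23, adjusted p 0.000367) in the joint and -1.05 (SE 0.23, adjusted p 0.00212) in skin, which missed the threshold. The joint call held in 8 of 13 fits (adjusted p up to 0.00252). Its losses included the fits without nonmigrated replicate 1 (adjusted p 0.00192), nonmigrated replicate 2 (0.00181) or migrated replicate 2 (0.00116), and the fit with a replicate block.

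Ctsh, an aminopeptidase abundant in antigen-presenting cells, was at 943, 837 and 632 CPM in joint nonmigrated and 315, 562 and 594 CPM in joint migrated cells. In skin it was at 525, 420 and 826 CPM in nonmigrated and 505, 700 and 692 CPM in migrated cells, and these ranges overlapped. The log2 fold change was -0.77 (SE 0.28, adjusted p 0.0338) in the joint and -0.02 (SE 0.28, adjusted p 0.963) in skin, so Ctsh was not called at either site.

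Ctse, an endosomal aspartic protease found in lymphoid and epithelial cells, was the least abundant member outside Ctsl in the LN libraries. It was at 17.7, 19.8 and 20.4 CPM in joint nonmigrated and 24.2, 18.5 and 18.3 CPM in joint migrated cells, with overlapping ranges and a log2 fold change of 0.01 (SE 0.20, adjusted p 0.984). In skin it was at 17.8, 28.8 and 16.9 CPM in nonmigrated and 12.6, 11.4 and 12.7 CPM in migrated cells. There its log2 fold change was -0.91 (SE 0.21, adjusted p 0.00286), which missed both limits of a call.

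**Figure D2:**
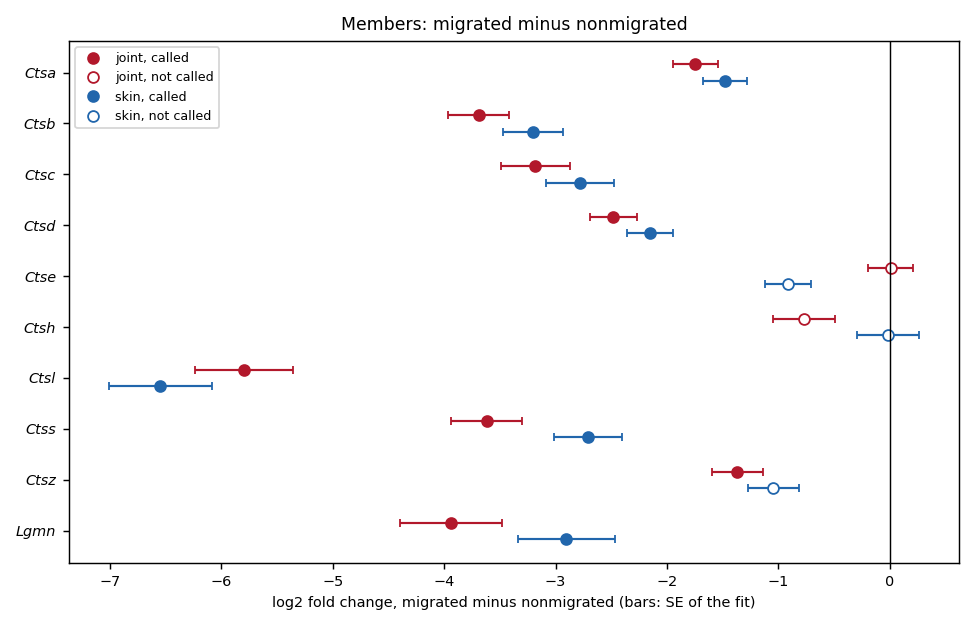
Log2 fold change of each member, migrated minus nonmigrated cells, in the joint (red) and in skin (blue), with bars of 1 SE of the fit; filled points were called. The values run from 0.01 for Ctse to -5.80 for Ctsl in the joint and from -0.02 for Ctsh to -6.55 for Ctsl in skin.

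Marker genes of cell types moved along with these differences. Of 10 monocyte and macrophage markers, 9 fell in migrated cells at each site. Their summed level was 18711 to 24572 CPM in joint nonmigrated, 456 to 635 CPM in joint migrated, 2904 to 11962 CPM in skin nonmigrated and 576 to 890 CPM in skin migrated cells, and none of the 10 was at 3 counts or fewer throughout any of these groups. In skin nonmigrated replicates 1, 2 and 3 this sum was 4359, 2904 and 11962 CPM, an order that all members but Ctsd and Ctse had. In joint nonmigrated replicates 1, 2 and 3 it was 20614, 24572 and 18711 CPM. Ctsa, Ctsb, Ctsc and Ctsd had that order, and the other members did not. Neutrophil markers also fell (9 of 9 in the joint and 8 of 9 in skin), from 7853 to 23986 CPM down to 47.4 to 106 CPM in the joint. In joint nonmigrated replicates 1, 2 and 3 the neutrophil sum was 7853, 14608.5 and 23986 CPM. Ctse had that order, Ctss, Ctsh, Ctsz and Lgmn had the opposite one, and the other members had neither. T cell markers rose (7 of 7 in the joint and 2 of 7 in skin), as did B cell markers (4 of 6 and 6 of 6). Of 8 dendritic cell markers, 4 rose and 1 fell in the joint and 3 rose and 1 fell in skin. They summed to 264 to 386 CPM in joint nonmigrated and 1845 to 4801 CPM in joint migrated cells. The lowest migrated sum was in replicate 1, where Ctsb, Ctsc, Ctsh, Ctsl, Ctss, Ctsz and Lgmn were also lowest. Ctsa, Ctsd and Ctse were highest in that library. In skin the dendritic cell markers summed to 608 to 1308 CPM in nonmigrated and 3507 to 5345 CPM in migrated cells. Fibroblast markers, of cells that lack CD45, summed to 130 to 356 CPM in joint and 54.9 to 237 CPM in skin nonmigrated cells, and to 2.27 CPM or less in migrated cells. Keratinocyte markers summed to 127, 256 and 22.1 CPM in skin nonmigrated replicates 1, 2 and 3, and to 1.41 CPM or less in migrated cells. Ctse had that order in skin nonmigrated cells, as did the neutrophil, dendritic cell and T cell sums. The part of these cell types in the member differences was not tested.

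To compare levels between genes, counts were divided by exon length and scaled to the same total in each library (per-length level). On this scale Ctss was the most abundant member in every group by its mean, at 9656 ± 1946 (SD, n = 3) in joint nonmigrated and 1034 ± 194 in joint migrated cells. In joint nonmigrated cells it was followed by Lgmn (1959 ± 389), Ctsb (1781 ± 211), Ctsz (1525 ± 240) and Ctsd (1381 ± 54.8), each of which overlapped its neighbour in the order. Ctsc (793 ± 64.8) came next, then Ctsh (482 ± 93.8) and Ctsa (440 ± 42.2), which overlapped, then Ctsl (294 ± 5.88) and Ctse (16.5 ± 1.31). In joint migrated cells the order was Ctss, Ctsz (776 ± 244), Ctsh (371 ± 114) and Ctsd (327 ± 68.5), with Lgmn at 168 ± 40.8 and Ctsl last at 6.95 ± 2.17. The ranges of Ctss and Ctsz overlapped there. These levels depend on the annotation, which gives Ctsl 6489 bases of exon. With the longest transcript as the length, joint nonmigrated means were 1116 for Ctsc, 616 for Ctsh and 242 for Ctsl. The range of Ctsc then overlapped those of Ctsz and Ctsd, and that of Ctsh no longer overlapped that of Ctsa.

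The make-up of the members' transcripts differed between compartments. Ctss held 50.7 to 54.9% of the summed per-length level of the 10 members in joint nonmigrated libraries and 32.2 to 33.1% in joint migrated ones. Ctsz held 8.28 to 8.40% and 19.7 to 26.5%, and Ctsh 2.56 to 2.73% and 9.54 to 12.7%. With the longest transcript as the length, Ctsh held 3.76 to 4.05% and 13.5 to 17.9%. In skin, Ctss went from 46.9 to 54.0% in nonmigrated to 35.3 to 37.6% in migrated libraries, Ctsz from 9.14 to 16.8% to 25.7 to 27.9%, and Ctsh from 2.60 to 3.05% to 11.4 to 13.5%. At both sites migrated libraries held a lower share of Ctss and higher shares of Ctsz, Ctsh, Ctsa and Ctse than every nonmigrated library. For Ctsa these were 2.19 to 2.57% and 4.55 to 7.31% in the joint. These are shares of a sum that was lower in migrated cells, and no member was called higher there. Together the 10 members took 1.24 to 1.56% of all counts in joint nonmigrated and 0.202 to 0.268% in joint migrated libraries, and 0.722 to 1.60% and 0.245 to 0.298% in skin.

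**Figure D3:**
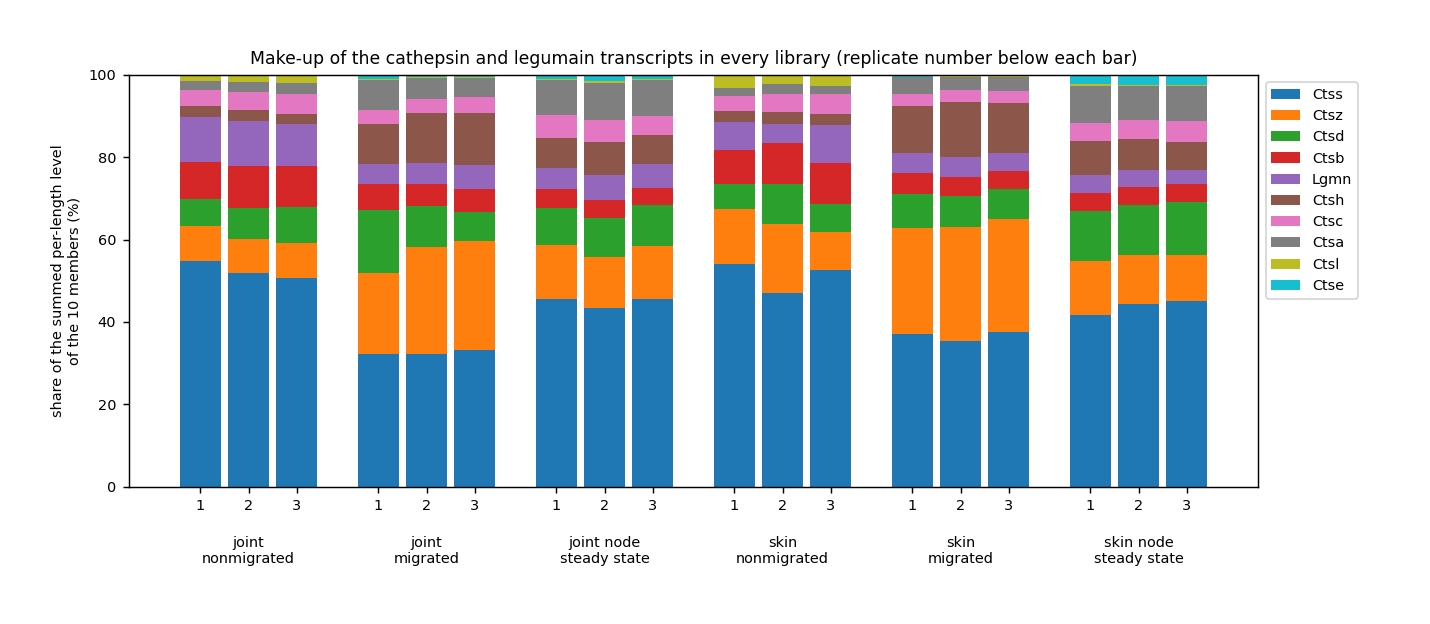
Share of each member in the summed per-length level of the 10 members (%), 1 bar per library, grouped by the 6 groups. Ctss takes 50.7 to 54.9% in joint nonmigrated bars and 32.2 to 33.1% in joint migrated bars, with larger shares of Ctsz and Ctsh in both migrated groups.

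Other genes of the lysosomal system were taken as lists. Of 36 other lysosomal hydrolases, 25 fell in the joint and 19 in skin, and none rose, with medians of -1.52 and -1.41 on the log2 scale. Naaa, which hydrolyses N-acylethanolamines, fell by 3.86 (SE 0.48) in the joint and 3.56 (SE 0.48) in skin. Gla, the α-galactosidase, fell by 2.59 (SE 0.43) and 4.05 (SE 0.46), and Galc, the galactosylceramidase, by 3.40 (SE 0.28) and 2.03 (SE 0.28). Of 22 genes for lysosomal membrane, sorting and biogenesis, 13 fell in the joint and 12 in skin, with medians of -1.38 and -1.22. Among them Slc11a1, the phagosomal metal transporter of macrophages, fell by 6.39 (SE 0.42) and 5.88 (SE 0.41), and Cd68 by 4.86 (SE 0.28) and 4.53 (SE 0.27). Tfeb, the transcription factor of lysosome biogenesis, was not called (log2 fold change -0.70 and -0.49). Of 17 vacuolar ATPase subunits, which acidify the lysosome, 11 fell at each site, with medians of -1.47 and -1.44, led by Atp6v0d2 at -2.94 (SE 0.40) and -5.38 (SE 0.45).

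**Figure D4:**
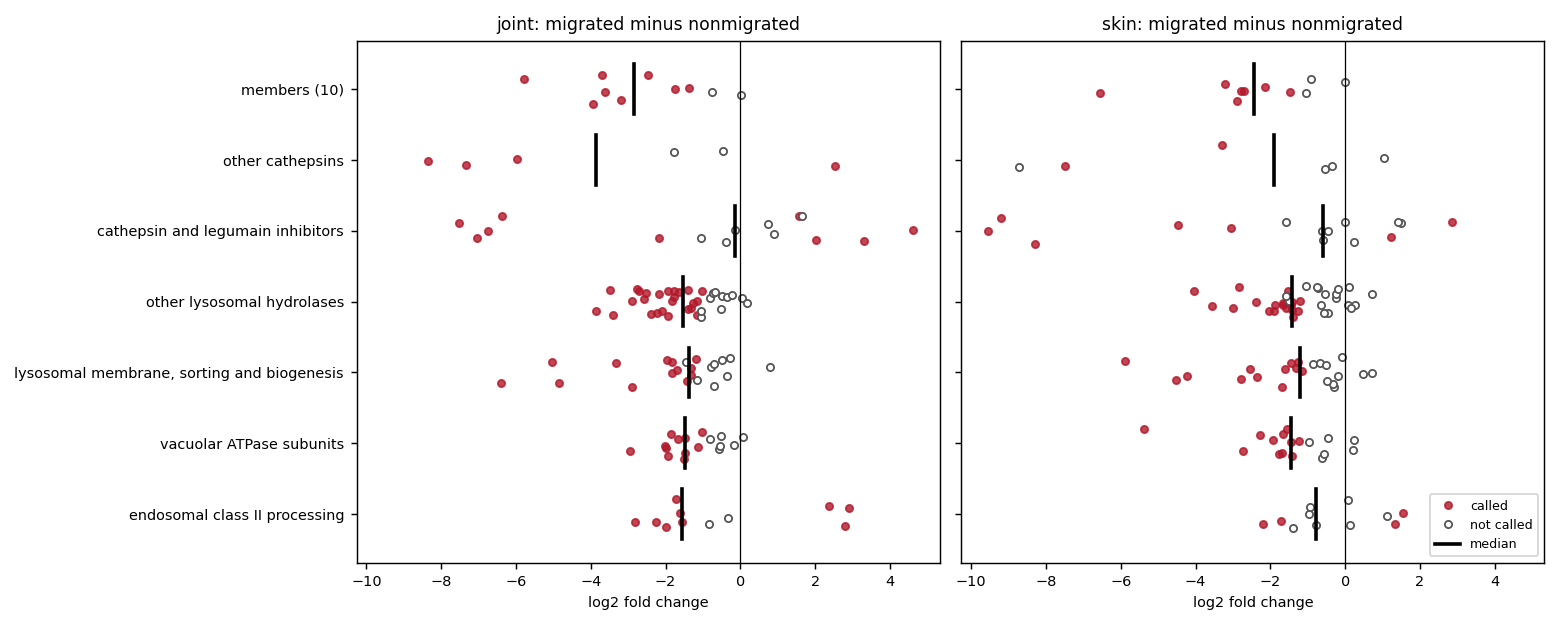
Log2 fold change, migrated minus nonmigrated cells, of the 10 members and of the tested genes of 6 lists, in the joint (left) and skin (right); red points were called, open points were not, and the black line is the median. The members' medians are -2.83 and -2.43, and the hydrolases' are -1.52 and -1.41; in skin, Stfa1, Stfa3 and Ctsg had no counts in migrated cells, so their position is set by the fit and is no bound.

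Of 14 other cathepsin genes, 6 were tested. Ctsk, the collagen-cutting cathepsin of osteoclasts and fibroblasts, was at 26.6 to 46.9 CPM in joint nonmigrated and 15.7 to 83.8 CPM in skin nonmigrated cells and below 1 CPM elsewhere, and it fell by 7.33 (SE 0.63) and 7.49 (SE 0.67). Ctsg, a serine protease of neutrophil granules, was at 21.4 to 97.2 CPM in joint nonmigrated cells and fell by 5.97 (SE 0.84) there. In skin its nonmigrated level was 0.713 to 2.50 CPM, and its migrated libraries were at 0. Ctsw, of cytotoxic lymphocytes, rose by 2.54 (SE 0.41) in joint migrated cells, and its log2 fold change of 1.03 (SE 0.40, adjusted p 0.042) was not called in skin. The cathepsins known from the placenta (Cts3, Cts6, Cts7, Cts8, Ctsj, Ctsm, Ctsq and Ctsr) did not pass 3 counts in any library.

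Protease inhibitors, taken as a list of cystatins, serpins and others whose targets were not tested here, went both ways. Of 15 tested, 5 fell and 4 rose in the joint, and 5 fell and 2 rose in skin. Cstb, the cytosolic cystatin B, fell by 2.18 (SE 0.20) and 3.05 (SE 0.21). Cst3, the secreted cystatin C, was not called, at 833 ± 187 CPM in joint nonmigrated and 669 ± 250 CPM in joint migrated cells (SD, n = 3), and 933 ± 90.4 and 1009 ± 162 CPM in skin. Cst7, cystatin F of cytotoxic and myeloid cells, rose by 2.01 (SE 0.35) in the joint, and in skin its log2 fold change was 1.50 (SE 0.35, adjusted p 0.00324). Serpinb6b, an intracellular serpin, rose by 4.62 (SE 0.50) and 2.86 (SE 0.46). The Stfa genes, near-identical cystatin A copies whose reads could be split between them, made up 4 of the falls at each site.

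Of 11 genes of endosomal MHC class II processing, 6 fell and 3 rose in the joint, and 2 fell and 2 rose in skin. H2-DMb1, a chain of the peptide-exchange factor DM, fell by 2.83 (SE 0.27) and 2.21 (SE 0.26). H2-Oa, a chain of the DM inhibitor DO that is typical of B cells, rose by 2.90 (SE 0.23) and 1.54 (SE 0.22). Cd74, the invariant chain on which Ctss acts, fell by 1.62 (SE 0.27) in the joint, from 12593 ± 3338 to 4275 ± 551 CPM (SD, n = 3), and in skin its log2 fold change was -0.98 (SE 0.27, adjusted p 0.00813).

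The second question was whether the sites differed. Between joint and skin nonmigrated cells no member was called in edgeR (1 with an unadjusted p under 0.05, 0 by DESeq2), beside 3.05% of all genes called in either direction. That 1 member was Ctsa, at 0.53 (SE 0.19, unadjusted p 0.0197, adjusted p 0.0642). The largest value belonged to Lgmn, 0.87 (SE 0.41, unadjusted p 0.0546, adjusted p 0.131), with 2 SE on either side reaching from 0.06 to 1.69. The Lgmn value was 1.57 (adjusted p 0.00303) without skin nonmigrated replicate 3 and 0.49 (adjusted p 0.3) without replicate 2. The genes called over the whole table also moved with these libraries, from 192 higher and 319 lower in the joint to 526 and 846 without skin nonmigrated replicate 3 and 56 and 64 without joint nonmigrated replicate 2. Between joint and skin migrated cells no member was called (2 with an unadjusted p under 0.05, 0 by DESeq2), and in edgeR neither was any gene (0.0%, with 2770 genes at an unadjusted p under 0.05). DESeq2 called 81 genes higher and 101 lower there, and edgeR with no filter on low counts 31 and 30. The values ran from -0.52 for Ctss (SE 0.29) to 0.65 for Ctse (SE 0.21, adjusted p 0.137). For the difference of the migration change between sites, no member was called (2 with an unadjusted p under 0.05, 0 called by DESeq2), beside 0.119% of all genes. For Lgmn the difference of differences was -1.03 with 2 SE reaching from -2.18 to 0.11, and for Ctss -0.91 (SE 0.40, adjusted p 0.18). Without skin nonmigrated replicate 3 these were -1.73 (adjusted p 0.0129) and -1.28 (adjusted p 0.0207), and without replicate 2 they were -0.65 and -0.63.

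The third question was how migrated cells compared with cells of the same nodes at steady state. In the joint, Ctsh and Ctsz rose, 2 of 10 members beside 12.4% of the 17107 genes tested that were called higher. In skin, Ctsz, Ctsh, Lgmn, Ctsb and Ctss rose, 5 of 10 members beside 16.6% of genes, and Ctse fell, beside 8.51% called lower. These tests share the migrated libraries with those above, so the values are given side by side with no comparison between them. In skin, the groups also differed in depth as given above.

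Ctsz was at 114, 103 and 130 CPM in the steady-state joint-draining node, against 208, 380 and 398 CPM in joint migrated cells. In the skin-draining node it was at 91.2, 78.7 and 68.0 CPM, against 363, 464 and 501 CPM in skin migrated cells. Every migrated library was above every steady-state one. It rose by 1.50 (SE 0.21, adjusted p 6e-05), or 2.83-fold, in the joint and by 2.55 (SE 0.22, adjusted p 3.6e-07), or 5.88-fold, in skin.

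Ctsh was at 198, 206 and 220 CPM in the joint-draining and 182, 155 and 129 CPM in the skin-draining node at steady state, below all migrated libraries. It rose by 1.23 (SE 0.21, adjusted p 0.000284) in the joint and 2.10 (SE 0.21, adjusted p 1.9e-06) in skin. The joint call was lost without any 1 of migrated replicates 2 and 3 or steady-state replicates 1, 2 and 3 (adjusted p up to 0.00216), and with a replicate block, only the groups compared or all 18 libraries in the fit (adjusted p 0.00106, 0.00204 and 0.00103), but not without migrated replicate 1, the library with the lowest level. Without that library 3 members were called, since Ctsb then reached 1.01.

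Ctsb was at 170, 156 and 172 CPM in the joint-draining and 127, 120 and 113 CPM in the skin-draining node. It rose by 1.50 (SE 0.10, adjusted p 4.1e-08) in skin, and its log2 fold change of 0.95 (SE 0.10, adjusted p 4.3e-06) in the joint missed only the limit on size. Lgmn was at 69.4, 81.9 and 95.2 CPM in the joint-draining and 49.5, 43.0 and 33.5 CPM in the skin-draining node. It rose by 1.62 (SE 0.18, adjusted p 5.3e-06) in skin, and its joint value was 0.47 (SE 0.18, adjusted p 0.0414). Ctss was at 375, 342 and 430 CPM and 276, 275 and 259 CPM in the 2 nodes, with a rise of 1.14 (SE 0.15, adjusted p 1.5e-05) in skin and a joint value of 0.10 (SE 0.14, adjusted p 0.579). Leaving out skin migrated replicate 3 brought Ctss to 0.997, under the limit on size. With all 18 libraries in the fit, Ctss (adjusted p 0.00119) and Lgmn (adjusted p 0.00151) lost their skin calls.

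Ctse went the other way. It was highest in the skin-draining node at steady state, at 34.6, 34.4 and 31.5 CPM, against 12.6, 11.4 and 12.7 CPM in skin migrated cells, and it fell by 1.37 (SE 0.15, adjusted p 2.7e-06). In the joint its steady-state level of 19.6, 27.8 and 21.6 CPM overlapped that of migrated cells, with a log2 fold change of -0.18 (SE 0.14, adjusted p 0.296). Ctsd was higher in migrated cells at both sites, by 0.70 (SE 0.14, adjusted p 0.00092) in the joint and 0.69 (SE 0.14, adjusted p 0.0007) in skin. Ctsc was higher in skin, by 0.73 (SE 0.14, adjusted p 0.000477), and its joint value was 0.03 (SE 0.14, adjusted p 0.873). These rises of Ctsd and Ctsc missed only the limit on size. Ctsl and Ctsa were close to their steady-state levels, with values of -0.10 (SE 0.24) and -0.09 (SE 0.10) in the joint and -0.13 (SE 0.25) and 0.11 (SE 0.10) in skin.

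**Figure D5:**
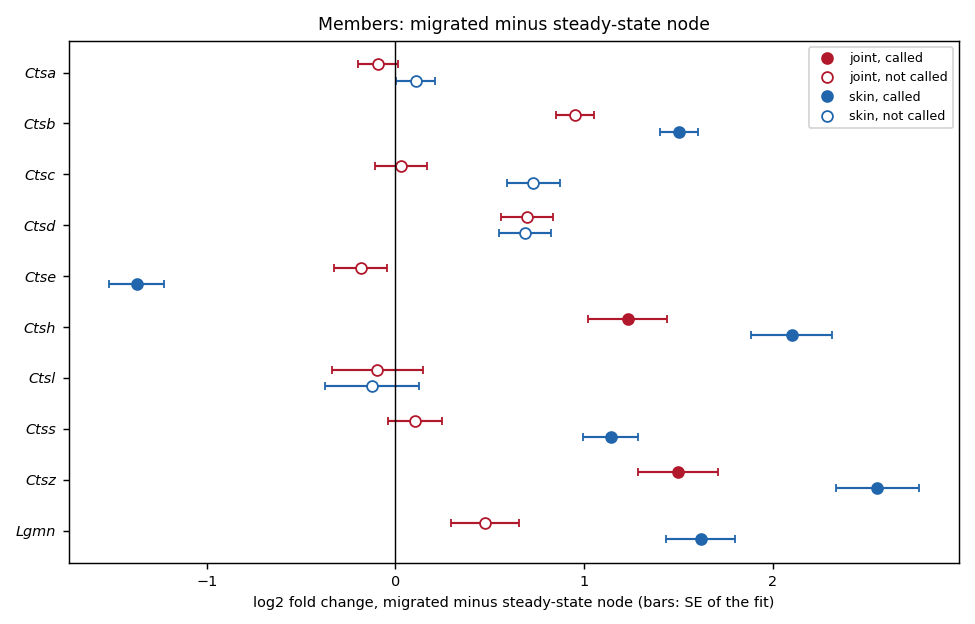
Log2 fold change of each member, migrated cells minus cells of the same node at steady state, in the joint (red) and in skin (blue), with bars of 1 SE of the fit; filled points were called. Ctsz and Ctsh lie furthest right, at 1.50 and 1.23 in the joint and 2.55 and 2.10 in skin, and Ctse lies furthest left in skin at -1.37.

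Dendritic cell and B cell markers differed strongly in the same comparisons. Of 8 dendritic cell markers 7 rose in the joint and 5 in skin, from summed levels of 29.8 to 34.7 CPM and 36.9 to 41.6 CPM at steady state to the migrated levels given above. All 6 B cell markers fell at both sites, from 4278 to 4551 CPM to 719 to 1000 CPM in the joint and from 2789 to 3592 CPM to 113 to 203 CPM in skin. Monocyte and macrophage markers rose in skin (9 of 10, from 177 to 224 CPM at steady state) and in the joint 0 of 10 were called. None of these markers was at 3 counts or fewer throughout any of these groups, and their part in the member differences was not tested. Among the listed genes, Cst3 rose by 3.16 (SE 0.26) in the joint and 4.36 (SE 0.28) in skin, and Ifi30, the lysosomal thiol reductase of antigen processing, by 1.62 (SE 0.21) and 2.95 (SE 0.22). Ifi30 was the riser among the 11 class II processing genes, of which 6 fell in the joint and 3 in skin (medians -1.01 and -0.61), led by H2-Ob, the other chain of DO, at -2.22 (SE 0.17) and -4.001 (SE 0.18). Of 13 genes tested from the inhibitor list, 8 rose and 1 fell in the joint and 10 rose in skin. Ctso, another papain-like cathepsin, fell by 1.02 (SE 0.12) and 1.85 (SE 0.12). Neutrophil markers fell in the joint (8 of 9) and none was called in skin. Of the 36 other hydrolases 5 rose in the joint and 7 in skin, and of the 17 ATPase subunits 1 and 2, with none falling. Over all 17107 genes tested, 12.4% were called higher in the joint and 16.6% in skin. The genes called lower were 598 in the joint and 1455 (8.51%) in skin.

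Between the 2 steady-state nodes no member was called in edgeR (7 with an unadjusted p under 0.05, 0 by DESeq2), beside 1.44% of all genes. Of the marker lists, 9 of 9 neutrophil and 4 of 10 monocyte and macrophage genes were called higher in the joint-draining node, and their part was not tested. Lgmn had the largest value, 0.97 higher in the joint-draining node (SE 0.18, adjusted p 0.00479), and Ctse was lower there by a log2 value of -0.54 (SE 0.14, adjusted p 0.0316). The change from steady state was also compared between sites in a single test. No member passed the adjusted p of 0.001 in edgeR (7 had an unadjusted p under 0.05, and DESeq2 called 3), beside 0.889% of all genes. At an adjusted p under 0.05 with the same limit on size, 4 of 10 members passed, beside 6.11% of genes. Ctse had a higher value in the joint (1.19, SE 0.20, adjusted p 0.00285), and Ctss (-1.04, SE 0.20), Ctsz (-1.06, SE 0.29) and Lgmn (-1.14, SE 0.26) had lower ones. In the same test 4 of 10 monocyte and macrophage markers were called lower in the joint, and 2 of 6 B cell and 2 of 3 plasmacytoid markers higher. The part of these cell types was not tested. Site cannot be told apart here from the smaller depth of the inflamed skin libraries.

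Across the 6 groups, Ctsb, Ctsc, Ctsd and Ctsa were highest in joint nonmigrated and second in skin nonmigrated cells, whose ranges overlapped. Ctsb then went from joint migrated (324 ± 35.3 CPM) and skin migrated cells (322 ± 23.6 CPM), which overlapped, to the joint-draining (166 ± 8.91 CPM) and skin-draining node (120 ± 7.10 CPM), which did not (SD, n = 3 each). Ctss followed the order joint nonmigrated, skin nonmigrated, skin migrated, joint migrated, joint-draining node and skin-draining node. Of these, the 2 nonmigrated groups overlapped, as did joint migrated cells and the joint-draining node. Ctsl and Ctsz were highest in skin nonmigrated cells, overlapping joint nonmigrated ones, and Ctsh and Ctse did not have both nonmigrated groups as the highest. Ctsh was second highest in skin migrated cells, and Ctse was highest in the skin-draining node (33.5 ± 1.74 CPM) and lowest in skin migrated cells (12.2 ± 0.726 CPM; SD, n = 3).

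Genes with the pattern most like each member over the 18 libraries were sought by Pearson's r of log2(CPM + 1) among 9342 genes with a mean of at least 10 CPM. The 18 points share groups of 3, so a high r reflects the differences between groups and is given as a description. Ctsb was nearest to Grn (r = 0.997), Aoah (0.996) and Stab1 (0.995), and Lgmn to Grn (0.992), Adam15 (0.992) and Psap (0.991). Ctss was nearest to Dpep2 (0.994), Parvb (0.993) and Psap (0.992). Grn and Psap encode lysosomal progranulin and prosaposin. Ctsh was nearest to Scamp2 (0.989) and Ifi30 (0.989), and Ctsz to Anxa7 (0.993). Ctsa was nearest to Apoe (0.987), Ctsc to Slc35f5 (0.995), Ctsd to Itgb2 (0.990) and Ctsl to Tnfrsf1a (0.995). Ctse had no match of that strength, with Pts (0.886) first, and its r with Ctsh was -0.744. Among the members, Ctsc and Ctss were the closest pair (0.991).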

How the data were processed

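RNA of sorted red CD45+ Kaede leukocytes was sequenced as paired 100-base reads. The authors trimmed reads (Trim Galore), aligned them to mm10 with TopHat2 against Ensembl models, and deposited raw read counts per gene from HTSeq. Lines that name no gene took 11.3 to 15.1% of all reads and were left out. Kit strandedness is not given in the sources used here.

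Counts were tested with edgeR 4.0.16 (R 4.3.3) by quasi-likelihood, with TMM scaling and a minimum count of 10 in filterByExpr. Each SE was recovered from the fold change and its F statistic. Inflamed groups were fitted together, as were the 4 LN groups. Benjamini-Hochberg adjustment was over all genes tested. Calls needed an adjusted p under 0.001 and a log2 change beyond 1 in size. DESeq2 1.42.0, other filters, scalings and designs, and leaving out each library were alternatives. The fits were tested on simulated data.

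Every member is reported for migrated cells against nonmigrated and against steady-state ones, and selected members elsewhere. From each list, the genes named were among the 5 largest calls with separate replicates in at least 1 comparison (given at both sites), plus Ctsk, Ctsg, Cstb, Cst3, Cst7, Cd74 and Tfeb whatever they showed. The members and lists were chosen with earlier results of these data known. Replicates are pools of mice in the inflamed groups. Where samples are not stated to be separate pools, p-values measure only the spread between these samples.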

Additional observations from a re-analysis of the deposited data

Results flagged for a closer look

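For 6 members, the change from the steady-state node to migrated cells differed between joint and skin by an interaction test at an adjusted p under 0.05 (edgeR, over all genes). The values, joint change minus skin change on the log2 scale, were 1.19 for Ctse (SE 0.20, adjusted p 0.00285), -1.14 for Lgmn (SE 0.26, adjusted p 0.0138) and -1.06 for Ctsz (SE 0.29, adjusted p 0.0381). They were -1.04 for Ctss (SE 0.20, adjusted p 0.00704), -0.70 for Ctsc (SE 0.20, adjusted p 0.0396) and -0.55 for Ctsb (SE 0.14, adjusted p 0.0274). None passed an adjusted p of 0.001. The skin migrated libraries were also the smaller ones, and site cannot be told apart from that difference.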

How the results depend on the processing

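Of the values of called members under the alternatives, 277 kept their direction and their side of the threshold and 22 lost the call with the same direction. Of values not called, 29 changed sign, 927 stayed and 15 became calls. The joint count of members higher than in the steady-state node was 1 instead of 2 with a replicate block within each site, with only the groups compared and with all 18 libraries in 1 fit, and 1 to 3 with a library left out. For the change from steady state compared between sites, the count of 0 became 4 at an adjusted p under 0.05, 3 with DESeq2 and 3 with no filter on low counts. The cause was not tested. Fewer members were called lower in skin migrated than nonmigrated cells with only the groups compared (5 instead of 7). With DESeq2, or at an adjusted p under 0.05, 8 were called lower there.

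Nonmigrated and migrated libraries of the same replicate number correlated at 0.0144 to 0.192 in the joint and 0.0499 to 0.127 in skin. For different numbers the values ran from -0.183 to 0.0583 and from -0.0955 to 0.0158. In skin every same-number value was above every other one. The labels do not say whether numbers pair samples, and the main fits did not pair them. Libraries closest to their own number were 4 of 6 and 6 of 6. The replicate block gave 7 instead of 8 lower members in the joint and 6 instead of 7 in skin, and 6 in skin against the steady-state node, as without it. Over all genes, migrated minus nonmigrated, it called 1047 higher and 1779 lower in the joint instead of 1476 and 2110. In skin it called 1017 and 1733 instead of 1424 and 2084.

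Values that changed sign were near 0 and never called. Migrated minus nonmigrated, Ctse in the joint was -0.0088 with DESeq2's size factors, -0.0077 with DESeq2 and -0.0013 with the replicate block, and Ctsh in skin was 0.021 with the block. With no filter, Ctsc was 0.022 between migrated groups and -0.0069 against the joint-draining steady-state node, where all 18 libraries gave -0.0016. Ctsd was -0.0001036 with the block in the between-site test of the change from steady state. With 1 library left out, migrated minus nonmigrated ran from -0.118 to 0.105 for Ctse in the joint and -0.203 to 0.294 for Ctsh in skin. Joint minus skin nonmigrated ran from -0.407 to 0.0353 for Ctse and -0.648 to 0.0547 for Ctsl. Joint minus skin migrated ran from -0.099 to 0.0412 for Ctsb, -0.161 to 0.149 for Ctsc, -0.0195 to 0.27 for Ctsd and -0.308 to 0.0374 for Lgmn. Against steady state, Ctsc ran from -0.119 to 0.165 and Ctsl from -0.352 to 0.0795 in the joint, and Ctsa from -0.00084 to 0.15 and Ctsl from -0.443 to 0.0558 in skin. Ctsd ran from -0.0531 to 0.107 between the nodes. Between sites, the change from steady state ran from -0.111 to 0.223 for Ctsd and -0.171 to 0.348 for Ctsl.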
